A study of Mus musculus with 7 samples.

Results

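The genes described here are 7 of the small leucine-rich proteoglycans (SLRPs): Dcn (decorin), Bgn (biglycan), Lum (lumican), Ogn (osteoglycin), Prelp (prolargin), Aspn (asporin) and Podn (podocan). They were taken by symbol from the 56854 gene identifiers listed in every library, and all 7 were found. RNA of the entire shoulder joint was sequenced from each of 7 mice 2 weeks after repair of the left supraspinatus, a tendon of the rotator cuff. The comparison was between wild-type mice (n = 3) and Tnc-/- mice (n = 4), which lack tenascin C, a glycoprotein of the extracellular matrix. Both groups had the same operation, so no library shows an unoperated joint, and the strain, the age and the way the Tnc allele was made are not given in the labels.

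SLRPs are secreted proteins whose core is a curved stack of leucine-rich repeats. Many carry chondroitin, dermatan or keratan sulphate chains, bind collagen fibrils and set how thick and how evenly spaced those fibrils become. In tendon they are known for their part in fibril assembly and in tendon strength, and several also hold growth factors such as TGF-beta in the matrix or signal through receptors.

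The promoters of a pair of members are shown because Podn was the member whose level passed the test upwards, while Bgn is an abundant member that did not pass in either direction. Each is the 250 bases before an annotated start in RefSeq (build GRCm38.p6), read 5′ to 3′ in the direction of the gene, with matches to the GC box GGGCGG on either strand in capitals. The Podn stretch lies at chr4:108031955-108032204 on the minus strand and belongs to the first of the 2 starts listed for the gene, and Bgn lies at chrX:73483351-73483600 on the plus strand.
Podn: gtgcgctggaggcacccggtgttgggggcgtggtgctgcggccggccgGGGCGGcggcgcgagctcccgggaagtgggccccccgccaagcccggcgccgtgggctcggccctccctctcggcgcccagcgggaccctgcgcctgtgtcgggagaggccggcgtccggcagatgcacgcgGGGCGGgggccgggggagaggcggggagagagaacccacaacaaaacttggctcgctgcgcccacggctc
Bgn: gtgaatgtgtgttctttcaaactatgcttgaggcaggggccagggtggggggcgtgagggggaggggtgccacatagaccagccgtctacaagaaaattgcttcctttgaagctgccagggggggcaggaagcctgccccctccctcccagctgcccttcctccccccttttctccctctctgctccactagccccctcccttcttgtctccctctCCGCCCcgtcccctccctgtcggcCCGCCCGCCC
The Podn stretch was 78.0% G and C and held 2 matches to the GC box, and the Bgn stretch was 64.4% G and C and held 3, of which the last 2 overlap. The stretch before the other Podn start (chr4:108030987-108031236) was 64.0% G and C and held 0 matches, and the data do not show which start was used. Across 32817 promoters of the same length, 32.7% held at least 1 match. None of these stretches held the TATA box letters TATAAA on either strand, which 12.4% of the promoters did. The reference table matched 5 of the 7 members, and these matches only describe the letters in the window.

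Gene counts summed to 13.5 to 18.5 M per wild-type library and 19.2 to 28.2 M (M, mega) per Tnc-/- library. Tnc, which checks the labels, was at 437, 292 and 327 CPM in wild type and at 33.4, 38.9, 39.9 and 55.0 CPM in Tnc-/-, where CPM is counts per 1000000 after TMM scaling of library totals. It fell in Tnc-/- (log2 fold change -3.08, SE 0.21, adjusted p = 2.8e-04, edgeR's quasi-likelihood test with Benjamini-Hochberg adjustment), and 72.6% of its exon length lies under the gene 8030451A03Rik. Wild-type libraries 2 and 3 stood apart from the rest: olfactory, vomeronasal and trace amine receptor genes, which joints are not known to use, summed to 1564 and 1113 CPM of unscaled library totals there, against 89.8 in wild-type library 1 and 33.3 to 41.5 in Tnc-/-. The files of the genotypes also list different gene identifiers and different rows beside the genes, so genotype and any difference in how the files were made cannot be told apart. Markers of the tissues of a shoulder were present in every library: summed CPM was 11124 to 23261 over 8 tendon markers, 1603 to 4156 over 10 cartilage markers, 1137 to 1585 over 10 bone markers and 25537 to 54499 over 10 skeletal muscle markers. Among the tendon markers Scx, the transcription factor that defines tendon cells, was listed at 0 in all 7 libraries and lies wholly inside the span of Bop1.

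Ogn and Aspn could not be followed in these counts. Ogn, a keratan sulphate SLRP of bone and tendon, and Aspn, an SLRP with an aspartate-rich end that binds collagen and TGF-beta, were both listed at 0 in all 7 libraries. Both lie wholly inside the span of Cenpp, a gene for a centromere protein, in the GENCODE M21 annotation, as do the family genes Omd and Ecm2, which were also at 0. The zeros went with this position: of 1062 protein-coding genes wholly inside another gene, 1052 (99.1%) were at 0 in all 7 libraries. Among genes with partial overlap the share was 5.41% (460 of 8496), and among genes with no overlap it was 16.8% (2050 of 12191). Cenpp itself had 325, 996 and 815 counts in wild type and 486, 270, 271 and 361 in Tnc-/-, where Dcn never had fewer than 33308. The row of ambiguous reads, listed for Tnc-/- only, held 11.4 to 11.6% of the listed reads there. Nothing is said here of the level of Ogn or Aspn in the tissue, and the values below are those of the other 5 members.

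**Figure D1:**
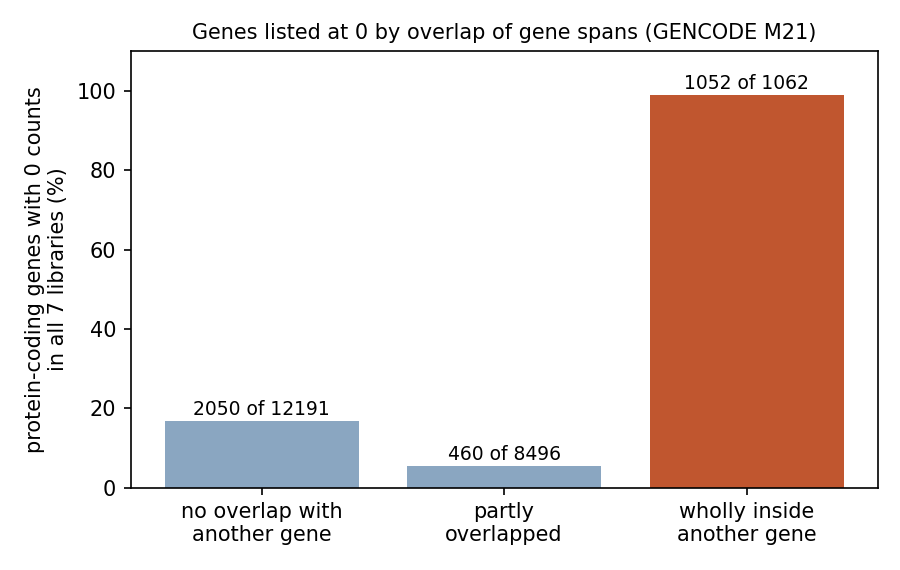
Share of protein-coding genes with 0 counts in all 7 libraries (vertical axis, percent), by whether the gene's span in GENCODE M21 overlaps another gene (bars; numbers are genes at 0 of genes in the class). Of genes wholly inside another gene, the position of Ogn and Aspn, 1052 of 1062 were at 0.

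Dcn, Bgn and Lum were abundant, and Prelp and Podn were low. On a per-length scale (TMM-scaled CPM per kb of the principal transcript), wild-type joints had Dcn at 1558 ± 262 (SD, n = 3), Bgn at 1113 ± 236, Lum at 579 ± 120, Prelp at 18.4 ± 2.23 and Podn at 11.0 ± 2.38. In Tnc-/- the same order held, with Dcn at 1147 ± 62.4 (SD, n = 4), Bgn at 1066 ± 262, Lum at 374 ± 56.8, Prelp at 23.8 ± 4.64 and Podn at 18.5 ± 3.83. Dcn and Bgn overlapped between libraries in both genotypes, Prelp and Podn overlapped in Tnc-/- alone, and Lum lay apart from its neighbours in both. The order of the first 3 rests on the length used. Over all merged exons, wild-type levels per kb were 579 for Lum, 469 for Dcn and 441 for Bgn, and Tnc-/- levels were 423 for Bgn, 374 for Lum and 345 for Dcn. The level of Prelp is also uncertain, since 79.0% of its 3615 transcript bases lie under Gm15851, and over the 759 free bases it came to 87.4 CPM per kb in wild type and 113 in Tnc-/-.

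Dcn was lower in every Tnc-/- library than in any wild-type library, but the difference did not pass the threshold. Decorin, with a dermatan or chondroitin sulphate chain, limits the lateral growth of collagen fibrils and binds TGF-beta. Its level was 3077, 2213 and 2925 CPM in the wild-type mice, in the order of their numbers, and 1974, 1881, 2095 and 2115 CPM in the Tnc-/- mice. Wild-type library 2 was the lowest of its group and lay close above the highest Tnc-/- library. The log2 fold change was -0.44 (SE 0.18, adjusted p = 0.102, edgeR's quasi-likelihood test), with a 95% interval of -0.86 to -0.02. In bulk tissue, fewer cells that make a transcript and less transcript per cell cannot be told apart, here or for any member below. With library totals in place of TMM the adjusted p was 0.0131 (log2 fold change -0.68). Under that scaling the median of all genes was -0.24 and 82.7% of all calls were lower. With DESeq2 and Benjamini-Hochberg adjustment the adjusted p was 0.00165 (-0.48). The other alternative fits did not pass. Without wild-type library 1 the log2 fold change was -0.26 (adjusted p = 0.235, edgeR), and with the receptor signal as a covariate -0.74 (adjusted p = 0.198, edgeR).

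Bgn showed no difference that could be separated from the spread between libraries. Biglycan is the closest relative of decorin, carries a pair of chondroitin or dermatan sulphate chains, and in free form activates Toll-like receptors. It was at 3074, 2035 and 2965 CPM in wild type and at 2222, 2287, 2277 and 3528 CPM in Tnc-/-. The groups overlapped, with Tnc-/- library 4 the highest of all 7 and wild-type library 2 the lowest. The log2 fold change was -0.06 (SE 0.25, adjusted p = 0.873, edgeR's quasi-likelihood test), and its 95% interval, -0.62 to 0.50, holds changes of either sign. Dcn and Bgn share the longest identical run of coding sequence of any pair of members, 17 bases that begin at base 808 of the Dcn and base 850 of the Bgn coding sequence (GENCODE M21), shown as the stretch of closest identity within the coding sequences:
Dcn and Bgn: CACTTGGACAACAACAA
No pair of members shared a longer run of coding sequence, and untranslated sequence was not compared.

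Lum fell in Tnc-/-. Lumican is a keratan sulphate SLRP that spaces collagen fibrils, best known from the transparent cornea and present in tendon and skin. It was at 1634, 1084 and 1537 CPM in wild type and at 803, 848, 897 and 1117 CPM in Tnc-/-. Tnc-/- libraries 1 to 3 were below every wild-type library, while library 4 lay just above wild-type library 2, so the groups overlapped by this pair. The log2 fold change was -0.63 (SE 0.21, adjusted p = 0.0482, edgeR's quasi-likelihood test), a level 64.6% of that in wild type. The call was close to the threshold and was lost when any 1 library other than wild-type 2 was left out (log2 fold change -0.74 to -0.42, adjusted p 0.0513 to 0.151), while the sign was negative in all 20 alternative fits. With the receptor signal as a covariate it was -1.01 (adjusted p = 0.102), and without wild-type libraries 2 and 3 it was -0.84, a fit that leaves 1 wild-type library and takes its spread from Tnc-/- alone, so that here and below its value is given with no test.

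**Figure D2:**
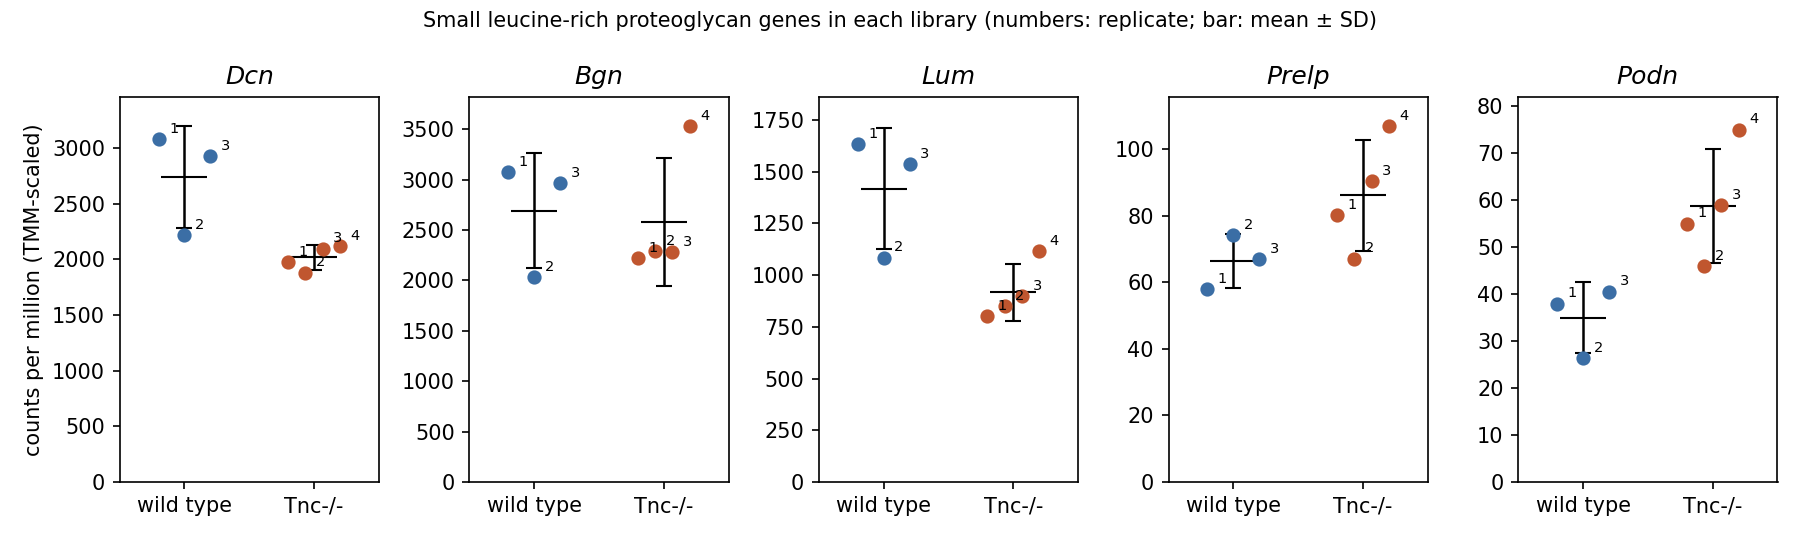
TMM-scaled CPM (vertical axis, linear, from 0) of the 5 counted members in each library (points, numbered by replicate) for wild type (n = 3) and Tnc-/- (n = 4), with the mean and SD as bars. Lum in Tnc-/- sits between 803 and 1117 CPM against 1084 to 1634 in wild type, while every Podn value in Tnc-/- is above every wild-type value.

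Prelp and Podn, the members of low abundance, had positive differences. Prolargin binds heparan sulphate and collagen and links basement membranes to the matrix beneath. It was at 58.0, 74.1 and 67.0 CPM in wild type and at 80.2, 67.1, 90.4 and 107 CPM in Tnc-/-, so that Tnc-/- library 2 lay within the wild-type range and the other 3 above it. The log2 fold change was 0.38 (SE 0.17, adjusted p = 0.135, edgeR's quasi-likelihood test), which did not pass, and most of the Prelp transcript shares its position with Gm15851.

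Podn rose in Tnc-/-. Podocan is an SLRP first described in kidney podocytes that binds collagen. Its level was 38.0, 26.4 and 40.5 CPM in wild type and 55.0, 45.9, 59.0 and 75.0 CPM in Tnc-/-. The groups did not overlap, with the lowest Tnc-/- library above the highest wild-type library. The log2 fold change was 0.75 (SE 0.21, adjusted p = 0.0292, edgeR's quasi-likelihood test), 1.68-fold higher. The call was lost without wild-type library 2 or 3 and without Tnc-/- library 1, 3 or 4 (log2 fold change 0.58 to 0.87, adjusted p 0.0589 to 0.0825), and with library totals in place of TMM (0.51, adjusted p = 0.0927), a scaling under which the median of all genes was -0.24. It was also lost with the receptor signal as a covariate (0.47, adjusted p = 0.511), and the value without wild-type libraries 2 and 3 was 0.62. Podn spans 81.7 kb, and receptor-type reads at the same density per kb would come to 8.58 of its 29.5 unscaled CPM in wild-type library 2 (29.1%), 13.3% in library 3, 1.28% in library 1 and at most 0.526% in Tnc-/-; for Dcn, Bgn, Lum and Prelp this share was at most 1.41% in any library.

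Over the family, 2 of the 5 counted members passed the threshold, 1 in each direction, where 29.0% of all 17791 genes tested did (10.3% higher and 18.7% lower in Tnc-/-). The lower share of all calls, 64.5% here, was 82.7% with library totals and 27.5% with limma voom. The groups did not overlap for 2 of the 5, Dcn downwards and Podn upwards, against 35.1% of all genes (17.7% higher, 17.4% lower). At an unadjusted p under 0.05 the counts were 3 of 5 members and 42.3% of all genes. These counts are near what the whole table gives for a list of this length, and with any 1 library left out only 0 to 1 members passed. The median log2 fold change was -0.06 over the 5 members and -9.0e-04 over all genes. Without any scaling beyond library totals, which puts the median of all genes at -0.24, the difference in mean log2 CPM was -0.65 for Dcn and -0.84 for Lum, each with an exact two-sided permutation p = 0.0571, the smallest that 3 against 4 libraries allow, and p = 0.143 after Benjamini-Hochberg adjustment over the 5. On the same scale Bgn differed by -0.29 (exact permutation p = 0.171), Prelp by 0.14 (exact permutation p = 0.457) and Podn by 0.53 (exact permutation p = 0.114).

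**Figure D3:**
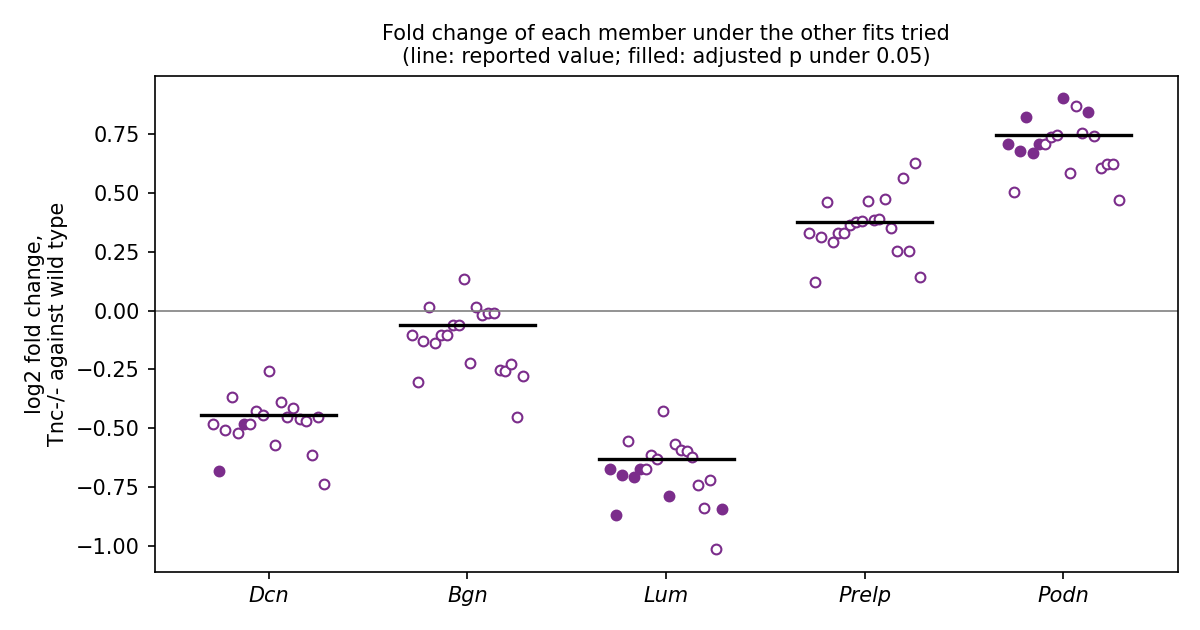
Log2 fold change of each counted member, Tnc-/- against wild type (vertical axis), in each alternative fit (circles; filled where the adjusted p was under 0.05), with the reported value as a line. Lum and Dcn are below 0 and Podn and Prelp above 0 in every fit drawn, whereas Bgn lies on both sides of 0, and 7 circles are filled for Lum, 7 for Podn and 2 for Dcn.

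Several ratios between members lay apart in the genotypes. A ratio of the counts of 2 members within a library does not depend on how libraries are scaled. These ratios were computed after the values of the members had been seen. Podn counts per Lum count were 0.0233, 0.0243 and 0.0264 in wild type and 0.0686, 0.0541, 0.0658 and 0.0672 in Tnc-/-. The groups lay far apart, with wild-type libraries 2 and 3 close to library 1, and the ratio was 2.58-fold higher in Tnc-/- (log2 difference 1.37). Podn per Dcn was 0.0123, 0.0119 and 0.0139 in wild type and 0.0279, 0.0244, 0.0282 and 0.0355 in Tnc-/-, 2.26-fold higher. Bgn per Lum was 1.88, 1.88 and 1.93 in wild type, almost the same in each mouse, and 2.77, 2.70, 2.54 and 3.16 in Tnc-/-, 1.47-fold higher. Prelp per Lum was 0.0355, 0.0683 and 0.0436 in wild type and 0.0999, 0.0791, 0.101 and 0.0956 in Tnc-/-, 1.97-fold higher. Here wild-type library 2 came closest to the other group.

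Of the 10 pairs, 7 had ratios that did not overlap between genotypes, each with an exact two-sided permutation p = 0.0571, the smallest possible, and p = 0.0816 adjusted over the 10. The background for such a count is high. Of all tested genes set against Lum, 50.4% had ratios that did not overlap, and the share was 49.8% against Dcn, 41.4% against Podn, 27.9% against Prelp and 21.7% against Bgn. The ratio of Dcn to Lum, the abundant members that were lower, overlapped: it was 1.88, 2.04 and 1.90 in wild type and 2.46, 2.22, 2.34 and 1.89 in Tnc-/- (exact permutation p = 0.171). The Podn to Prelp ratio also overlapped (exact permutation p = 0.114), as did Prelp to Bgn (exact permutation p = 0.229). As a share of the summed counts of the 5 members, Lum made up 20.4 ± 0.387% (SD, n = 3) in wild type and 16.2 ± 0.437% (SD, n = 4) in Tnc-/-. Bgn made up 38.6 ± 1.01% and 45.2 ± 3.91%, Dcn 39.5 ± 1.05% and 36.1 ± 3.84%, Prelp 0.996 ± 0.327% and 1.52 ± 0.151%, and Podn 0.502 ± 0.0312% and 1.03 ± 0.0930%. On the TMM scale the 5 summed to 6950 ± 1324 CPM in wild type and 5656 ± 868 CPM in Tnc-/-, with overlap (wild-type library 2 at 5434 and Tnc-/- library 4 at 6942). Without TMM scaling they held 0.752 ± 0.128% of all gene counts in wild type and 0.525 ± 0.0737% in Tnc-/-.

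**Figure D4:**
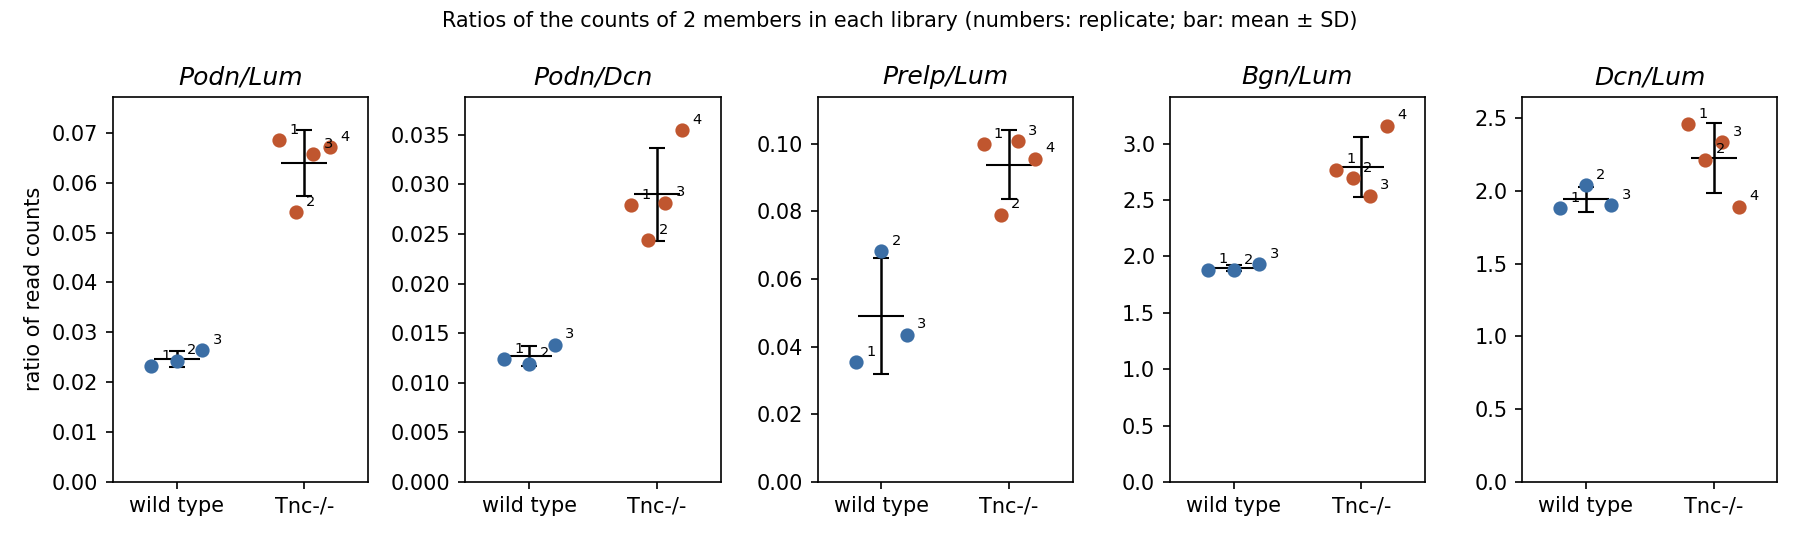
Ratio of the read counts of 2 members within each library (vertical axes, linear, from 0) for wild type (n = 3) and Tnc-/- (n = 4), with points numbered by replicate and bars for mean and SD. Podn to Lum runs from 0.0233 to 0.0264 in wild type and from 0.0541 to 0.0686 in Tnc-/-, while Dcn to Lum overlaps.

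Cell type markers were set beside these values. The summed level of 10 fibroblast markers overlapped between the groups (1230, 1020 and 1088 CPM in wild type against 1015, 1071, 1042 and 1478 in Tnc-/-), and all 10 were detected. Its highest value was in Tnc-/- library 4, the library that was highest of all 7 for Bgn, Prelp and Podn and highest within Tnc-/- for Dcn and Lum. The sum of 10 skeletal muscle markers was 25537 to 34504 CPM in wild type and 36553 to 54499 in Tnc-/-. That of 10 marrow myeloid and erythroid markers was 4223 to 8702 against 10986 to 18430, with Alas2 at 0 in all 7 libraries and wholly inside Apex2. Of the muscle markers 2 of 10 tested rose, and of the marrow markers 5 of 9 tested rose, with none lower in either list; of all genes tested, 10.3% rose and 18.7% fell. Of the other lists, adipocyte markers had 2 of 8 higher and 0 lower, endothelial markers 2 of 8 higher and 2 lower, and epidermis markers 2 of 4 tested lower. The lower epidermis markers, named after their values were seen, were Dsg3 and Trp63. Dsg3 was at 1.56, 9.90 and 6.74 CPM in wild type and at 0 in Tnc-/-. Trp63 was at 9.34, 32.2 and 26.8 CPM against 4.81 to 9.69. Both were highest in wild-type libraries 2 and 3, which had the receptor signal, and 2 epidermis markers had positive values. Cartilage markers had 1 of 10 higher, fibroblast and bone markers each had 1 of 10 higher and 1 lower, and macrophage markers had no call among 8, with 7 positive values. Tendon markers had 2 of 7 tested lower, 0 higher and 4 positive values. The lower ones were Tnc and, named after its value was seen, Mkx, a transcription factor of tendon cells (log2 fold change -0.92, adjusted p = 0.0379, edgeR). Of the exon length of Mkx, 51.4% lies under the gene AC148004.2. The part of cell composition in the member values was not tested.

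The other 11 genes of the family showed no call. Of the 7 that could be tested, 0 passed in edgeR's quasi-likelihood test (29.0% of all genes did), 0 had an unadjusted p under 0.05 (42.3% of all genes did), and 0 passed in DESeq2 with Benjamini-Hochberg adjustment or in limma voom. The median log2 fold change was 0.07. Fmod (fibromodulin), a keratan sulphate SLRP that with lumican shapes tendon fibrils, was the most abundant of them at 1299 ± 126 CPM (SD, n = 3) in wild type and 1368 ± 324 CPM (SD, n = 4) in Tnc-/-. Its log2 fold change was 0.07 (95% interval -0.42 to 0.57, adjusted p = 0.823, edgeR). Kera (keratocan), a keratan sulphate SLRP of cornea and tendon, was at 176 ± 45.0 and 174 ± 19.0 CPM, a log2 fold change of -0.02 (95% interval -0.45 to 0.41). Tsku (tsukushi), a secreted modulator of BMP and Wnt signals, was at 34.7 ± 1.56 and 40.4 ± 10.8 CPM (log2 fold change 0.22). With 1 library left out the Tsku value ran from 0.033 to 0.34. Podnl1, the closest relative of podocan, was at 19.2 ± 5.63 and 23.0 ± 1.89 CPM (log2 fold change 0.26, adjusted p = 0.378, edgeR). Without wild-type library 1 its log2 fold change was 0.63 (adjusted p = 0.00864, edgeR), without wild-type libraries 2 and 3 it was -0.16 and with the receptor covariate -0.37.

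Chadl was low but counted in every library, and Epyc, Nyx and Optc were at a few counts per 1000000 or fewer. Chadl, a chondroadherin-like gene of cartilage, was at 8.52 ± 0.528 and 9.44 ± 2.39 CPM (log2 fold change 0.15). Epyc (epiphycan), an SLRP of growth plate cartilage, was at 3.61 ± 1.58 and 2.17 ± 1.11 CPM (log2 fold change -0.73, SE 0.63). Nyx (nyctalopin), known from the retina, was at 1.77 ± 1.35 and 0.646 ± 0.230 CPM (log2 fold change -1.44, SE 0.71). The Nyx value was -0.57 without wild-type library 1, and -2.30 without wild-type libraries 2 and 3. Optc (opticin), an SLRP of the eye, had 2 to 9 counts per library and was not tested. Omd, Ecm2 and Chad were at 0 in all 7 libraries and lie wholly inside another gene, Cenpp for the first pair and Acsf2 for Chad, so these zeros give no measured level.

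**Figure D5:**
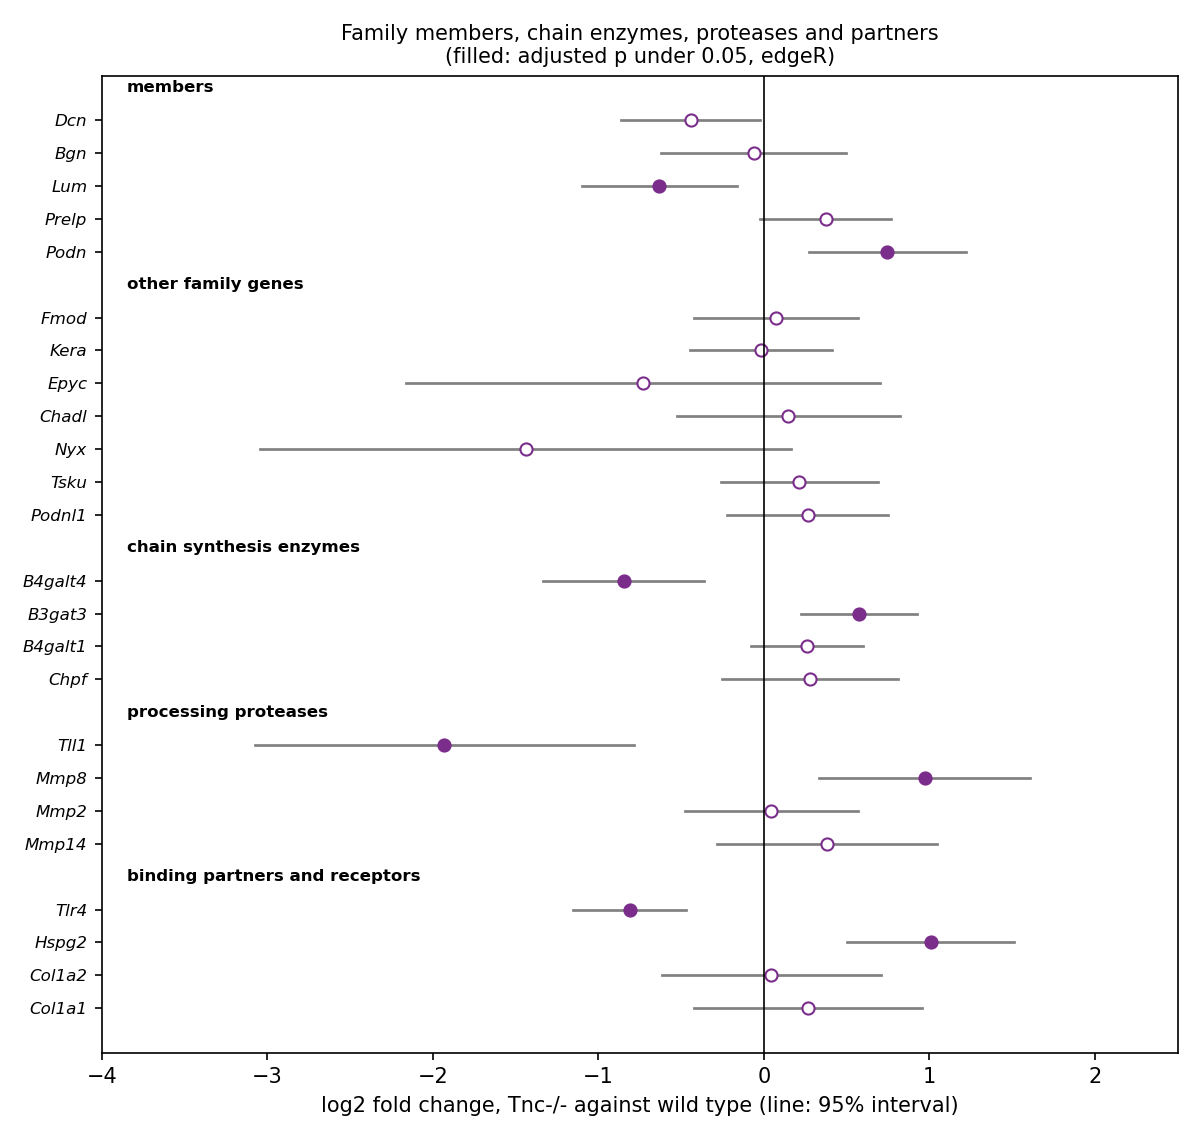
Log2 fold change in Tnc-/- against wild type (horizontal axis) with its 95% interval from edgeR (lines) for the counted members, the tested family genes, and the named chain enzymes, proteases and binding partners; filled points had an adjusted p under 0.05. Lum and Podn are the filled members, and all 7 other family genes tested have intervals that include 0.

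The enzymes that build the sugar chains of these proteins were mostly without a call. Of 28 genes, 27 were tested, 1 was higher, 3 were lower and 23 did not pass (4 of 27 called, against 29.0% of all genes, 10.3% higher and 18.7% lower), and the median log2 fold change was 0.00348. B3gat3, which adds the glucuronic acid that completes the linker between core protein and chain, rose from 37.2 ± 7.43 to 55.3 ± 3.52 CPM (log2 fold change 0.57, adjusted p = 0.0253, edgeR). B4galt4, a galactosyltransferase that acts in keratan sulphate synthesis, fell from 26.3 ± 7.21 to 14.6 ± 1.27 CPM (log2 fold change -0.85, adjusted p = 0.0201, edgeR). Of the alternative fits, 7 of 20 kept the call of B3gat3 and 9 of 20 that of B4galt4. Without wild-type libraries 2 and 3 the log2 fold change was 0.27 for B3gat3 and -0.41 for B4galt4, and with the receptor signal as a covariate it was 0.12 and -0.20 (adjusted p = 0.804 and 0.769, edgeR). The most abundant were B4galt1, another galactosyltransferase (log2 fold change 0.26, adjusted p = 0.216, edgeR), and Chpf, a chondroitin polymerising factor (0.28, adjusted p = 0.396, edgeR). Both passed without wild-type library 1 (0.44, adjusted p = 0.0239, and 0.54, adjusted p = 0.0460, edgeR), and Chpf was 0.037 without Tnc-/- library 4. The lowest B4galt1 value with 1 library left out was 0.14. Named after their values were seen, Csgalnact1 and Chsy3, which start and extend chondroitin chains, made up the rest of the lower calls. Csgalnact1 was at 24.8, 65.9 and 64.3 CPM in wild type and 21.6 to 28.1 in Tnc-/-, and Chsy3 was at 15.6, 98.5 and 65.3 CPM against 12.4 to 24.4. In both genes the high values were those of wild-type libraries 2 and 3, the libraries with the receptor signal, while library 1 lay within the Tnc-/- range. Without libraries 2 and 3 the log2 fold change was -0.040 for Csgalnact1 and 0.082 for Chsy3.

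Among the proteases that process or cut SLRPs, 15 of 17 were tested, 1 was higher and 1 lower (2 of 15 called, against 29.0% of all genes), and the median log2 fold change was 0.02. Mmp8, the collagenase of neutrophils, was at 69.2, 32.0 and 50.6 CPM in wild type and at 125, 73.3, 114 and 84.5 CPM in Tnc-/-. It rose by 0.97 on the log2 scale (adjusted p = 0.0326, edgeR), alongside the marrow markers given above. Without wild-type libraries 2 and 3 the value for Mmp8 was 0.52, and with the receptor signal as a covariate 0.26 (adjusted p = 0.765, edgeR). Tll1, a protease of the BMP1 family that trims matrix precursors, was at 4.78, 24.7 and 23.4 CPM in wild type and 3.81 to 5.24 CPM in Tnc-/-. Its log2 fold change of -1.93 (adjusted p = 0.0229, edgeR) again rested on wild-type libraries 2 and 3: it was -0.057 without them and 0.65 with the receptor signal as a covariate. The call was kept in 9 of 20 alternative fits for Mmp8 and in 7 of 19 for Tll1. The abundant gelatinase gene Mmp2 was at 891 ± 138 and 920 ± 245 CPM (log2 fold change 0.05). The membrane collagenase gene Mmp14 was at 666 ± 229 and 870 ± 270 CPM (log2 fold change 0.38, adjusted p = 0.352, edgeR), a value that was 0.15 without Tnc-/- library 4 and 0.80, past the threshold, without wild-type library 1 (adjusted p = 0.0102, edgeR). Mmp7 and Htra1 were at 0 in all 7 libraries, Htra1 lying wholly inside Fgfr2, as does the chain enzyme Chst15, also at 0.

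Of 32 binding partners and receptors, all were tested, 3 rose, 3 fell and 26 did not pass (6 of 32 called, against 29.0% of all genes, 10.3% higher and 18.7% lower), with a median log2 fold change of 0.05. Tlr4, a Toll-like receptor that free biglycan engages, was at 35.3, 37.9 and 42.9 CPM in wild type and between 19.6 and 25.3 CPM in the 4 Tnc-/- libraries. The groups did not overlap, and it fell by 0.81 on the log2 scale (adjusted p = 0.00830, edgeR). Hspg2 (perlecan), the heparan sulphate proteoglycan of basement membranes to which prolargin binds, was at 545, 373 and 389 CPM in wild type and 706, 817, 859 and 1128 CPM in Tnc-/-. Here too the groups lay apart, a log2 fold change of 1.01 (adjusted p = 0.0126, edgeR). The alternative fits kept the call of Tlr4 in 16 of 19 cases and that of Hspg2 in 14 of 19. The values without wild-type libraries 2 and 3 were -0.68 and 0.68, and both calls were lost with the receptor covariate (Tlr4 -0.63, adjusted p = 0.200; Hspg2 0.48, adjusted p = 0.458, edgeR). The most abundant partners were the chains of collagen I, Col1a1 (log2 fold change 0.27, adjusted p = 0.542, edgeR) and Col1a2 (0.05, adjusted p = 0.922, edgeR), and neither passed. With 1 library left out the log2 fold change of Col1a1 ran from 0.032 to 0.59.

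The other calls among the partners, named after their values were seen, were as follows. Tgfb1, the growth factor that decorin and biglycan bind, rose (log2 fold change 0.77, adjusted p = 0.0203, edgeR), as did Lrp1, an endocytic receptor for decorin (0.79, adjusted p = 0.0207, edgeR). Egfr, a receptor that decorin binds, fell from 98.0 ± 8.70 to 71.0 ± 5.64 CPM (-0.46, adjusted p = 0.0225, edgeR). Bmp4, a growth factor that biglycan binds, also fell (-0.95, adjusted p = 0.0401, edgeR), although wild-type library 1 at 13.6 CPM lay close to the Tnc-/- libraries at 8.26 to 13.3 CPM. Without wild-type libraries 2 and 3 the values were 0.37 for Tgfb1, 0.52 for Lrp1, -0.57 for Egfr and -0.25 for Bmp4. All 4 calls were lost with the receptor covariate (0.15, 0.35, -0.65 and 0.047, adjusted p 0.107 to 0.964, edgeR). With single libraries left out, adjusted p ranged up to 0.0881 for Tgfb1, 0.0803 for Lrp1, 0.0779 for Egfr and 0.176 for Bmp4, each time without wild-type library 3.

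The genes whose profile over the 7 libraries was nearest to the mean profile of the 5 counted members were Sfxn3, Sec11a, Clptm1l, Myof and 9530068E07Rik. The measure was the root mean square difference of centred log2 CPM among 4137 genes outside the family with a mean of at least 50 CPM, and it was 0.0432, 0.0485, 0.0628, 0.0702 and 0.0750 for these genes. Their log2 fold changes were close to 0, from -0.06 for Myof to 0.05 for Sec11a. The mean profile was highest in Tnc-/- library 4 and lowest in wild-type library 2, as were those of Bgn and Podn, whereas Lum was highest in wild-type library 1 and lowest in Tnc-/- library 1.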

How the data were processed

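Per the labels, RNA of whole joints was captured by its poly(A) tail. The authors deposited unnormalised counts of reads for each gene, with a separate file for every mouse. The submitters' processing notes list FastQC 0.11.9, HISAT2 2.2.1, HTSeq 2.0.2, DESeq2 1.38.3 and the mouse build GRCm39 (mm39), with no roles; the annotation and the counting mode are not given in the sources used here. Wild-type files listed 56980 identifiers and Tnc-/- files 56941; the 56854 in common were used, and none of the 213 others that could be placed (125) overlaps a member. Rows that name no gene held 30.1 to 32.7% of listed reads in Tnc-/- and were left out. No value column was left unmapped (0 columns).

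Groups follow the genotype label. The test over all genes was run in edgeR 4.0.16 under R 4.3.3 (default filterByExpr, leaving 17791 genes; TMM; robust quasi-likelihood F test; genotype as the term) with Benjamini-Hochberg adjustment over all genes and a threshold of 0.05; the steps were tested on simulated data. The p-values measure the spread between the libraries of these 7 mice. Unscaled CPM per library and count ratios were compared by exact two-sided permutation over 35 splits, on log2 values. Profiles over the libraries were compared on log2(CPM + 0.5). Gene spans, lengths and overlaps came from GENCODE M21 (GRCm38), another build than the notes name, so no gene coordinates are given beside the RefSeq promoters. In HTSeq as usually run, reads on overlapping genes are not assigned; without a stated strand setting antisense pairs such as Prelp and Gm15851 cannot be separated.

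Alternatives were DESeq2 1.42.0, limma 3.58.1 voom, Bonferroni adjustment, other scalings and filters, each library left out, wild-type libraries 2 and 3 left out, the replicate number as a block, and the receptor signal as a covariate. Fits of genes spanning at most 30 kb, ratios of members and levels over merged exons were added after seeing the data. The members and lists were chosen with earlier results of these data known. Named genes are the members, the family genes with counts, from each other list the 2 called genes with the smallest p and the 2 most abundant, the 5 nearest profiles, and Tnc; any other gene is marked or was at 0.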

Additional observations from a re-analysis of the deposited data

Results flagged for a closer look

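Among 37 values tested for a library far from the others of its group, 3 stood out, all for Tnc-/- library 4. Chance gives about 1 in 20 for independent values, but these share genes. The summed members include Bgn, and the ratios reuse the members. Bgn was at 3528 CPM there against 2222 to 2287 in the other Tnc-/- libraries, a gap of 0.951 of the group's range. The summed level of the counted members was 6942 CPM against 5129 to 5419, a gap of 0.840 of the range. The 10 fibroblast markers summed to 1478 CPM against 1015 to 1071, a gap of 0.879 of the range. Without this library the log2 fold change of Bgn was -0.25 in place of -0.06.

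The row of ambiguous reads, which no comparison uses, took up 11.5, 11.6, 11.4 and 11.6% of all reads in the 4 Tnc-/- files, in the order of their numbers. The wild-type files hold no such row, so its level cannot be set against a control.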

How the results depend on the processing

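Lum was lower in all 20 alternatives (-1.01 to -0.42), past the threshold in 7, and Podn higher in all 19 it entered (0.47 to 0.90), past it in 7. Dcn was lower in all 19 (-0.74 to -0.26), past it in 2, and Prelp higher in all 20 (0.12 to 0.63), past it in none.

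Counts are given for all genes, members, chain enzymes, proteases and partners in turn. DESeq2 with Bonferroni gave 1653, 0, 0, 0 and 2, limma voom 1004 (728 higher, 276 lower), 0, 0, 0 and 3, and edgeR with Bonferroni 22, 0, 0, 0 and 0. The receptor covariate gave 397, 0, 1, 1 and 0, and omission of wild-type libraries 2 and 3 gave 825, 0, 1, 1 and 1, plus 1 other family gene, Nyx, in a fit with 1 wild-type library that is assumed to vary like Tnc-/-. Genes up to 30 kb, which leave out Dcn and Podn, gave 1995 of 10049 genes, 1 of 3 members, 2 of 15 chain enzymes and 2 of 12 partners; no filter gave 1 member, and library totals gave 4 proteases. Leaving out 1 library gave 2229 to 14113 genes, 0 to 1 members, 0 to 1 other family genes, 0 to 14 chain enzymes, 0 to 5 proteases and 1 to 8 partners; the top came without wild-type library 1, which leaves 2 libraries with receptor signal. With replicate number as a block the counts were 1932, 0, 0, 1 and 2; same-numbered libraries deviated with correlations of -0.00531, 0.102 and -0.00549, so the numbers do not pair the mice.

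Log2 fold changes that changed sign, all of genes without a call except Tll1, Csgalnact1, Chsy3 and Bmp4, were as follows; the cause was not tested. With the covariate: Fmod -0.057, Podnl1 -0.37, B4galt1 -0.026, Chpf -0.18, Tll1 0.65, Csgalnact1 0.36, Chsy3 0.81, Bmp4 0.047, Mmp2 -0.36, Mmp14 -0.41, Col1a2 -0.61 and Col1a1 -0.40. Without wild-type 2 and 3: Podnl1 -0.16, Chsy3 0.082, Chpf -0.00328, Mmp2 -0.18, Mmp14 -0.10, Col1a2 -0.33 and Col1a1 -0.11. With the block: Fmod -0.092, Chadl -0.033, Mmp2 -0.14 and Col1a2 -0.13. With genes up to 30 kb: Fmod -0.15, Chadl -0.076, Tsku -0.00529 and Mmp2 -0.17. With library totals: Fmod -0.17, Chadl -0.10, Tsku -0.031, Mmp2 -0.19 and Col1a2 -0.19. With 10 counts in every library: Fmod -0.00673, Mmp2 -0.031 and Col1a2 -0.029. With upper-quartile scaling: Mmp2 -0.019 and Col1a2 -0.022. With no filter: Bgn 0.014 and Kera 0.055. With voom: Kera 0.00824. Leaving out 1 library spanned -0.25 to 0.14 for Bgn, -0.18 to 0.28 for Kera, -0.089 to 0.18 for Fmod, -0.025 to 0.26 for Chadl, -0.15 to 0.27 for Mmp2, -0.17 to 0.37 for Col1a2 and -0.00694 to 0.26 for the unscaled difference of Prelp.

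With 3 and 4 libraries, the permutation tests cannot pass the threshold, Ogn and Aspn gave no value, and genotype cannot be told apart from any difference in how the files were made.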
